A study of Mus musculus with 6 samples.

Results

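The subject is 43 genes of the NRF2 response, glutathione metabolism and peroxide clearance in mouse epidermis. They were chosen by name from the 54532 genes of the deposited count table, and all 43 were found in it. They fall into 5 groups: NRF2 control (3 genes), glutathione synthesis (5), peroxidases and dismutases (19), glutathione transferases (12) and NADPH supply (4). RNA was sequenced from newborn skin after fat and dermis had been taken off and the epidermis released with Dispase II. There were 3 libraries whose genotype label is Paxbp1 knockout and 3 whose label is wild type. The labels give no allele, promoter, Cre driver, sex, litter or strain, and they do not say whether a library was 1 animal or a pool. The p-values therefore measure the spread between these libraries only.

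NRF2, encoded by Nfe2l2, is a transcription factor that KEAP1 normally holds and marks for breakdown. Oxidants and electrophiles disable KEAP1, and NRF2 then pairs with small Maf proteins on antioxidant response elements. Its known targets include enzymes that make and recycle glutathione, thioredoxin system genes, transferases that join glutathione to foreign compounds, and enzymes that regenerate NADPH. In epidermis this system is known for protecting keratinocytes from oxidants and for a part in barrier repair.

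Some of these genes carry the letters of the antioxidant response element core, TGACNNNGC, near their start. RefSeq promoter windows on GRCm38.p6 (250 bases before to 50 after a start) were found for 38 of the 43 genes. Searched on both strands, the core was present in 11 of these 38 genes (28.9%), against 14.0% of the 27025 genes with a window. It was found in 4 of the 14 windowed genes that rose, 1 of 8 that fell and 6 of 15 that were not called. The stricter pattern TGACNCAGC, with more letters fixed, was present in 1 of the 38 genes (2.63%), Prdx1. Of all genes with a window 1.76% held it, so this share was near the background. A match of letters is a description of the sequence and not a site of binding. The stretches below show the core in a gene that rose, 1 that fell and 3 that were not called. They read 5′ to 3′ on the gene's strand, with the match in capitals. A match on the opposite strand reads GC first and GTCA last.
Nfe2l2 (rose): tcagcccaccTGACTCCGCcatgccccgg
Gstm5 (fell): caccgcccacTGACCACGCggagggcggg
Gclm (not called): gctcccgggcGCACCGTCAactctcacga
Gsta3 (not called): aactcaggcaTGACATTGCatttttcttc
Prdx1 (not called): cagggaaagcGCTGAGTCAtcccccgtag
These lie at chr2:75704885-75704913 (minus strand), chr3:107895802-107895830, chr3:122245413-122245441, chr1:21240454-21240482 and chr4:116685456-116685484. Only the Prdx1 match also holds TGANTCA, the letters of an AP-1 site. Over the whole windows, TGANTCA was present in 5 of the 38 genes (13.2%) and in 8.97% of all genes with a window.

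Library totals ran from 16315317 to 17816327 counts, of which the 43 genes took 0.337% to 0.410% (wild type) or 0.399% to 0.506% (labelled knockout). Paxbp1 itself did not check the labels: in CPM, which are counts scaled to library size with TMM factors, it averaged 86.1 ± 20.6 in wild type libraries against 92.5 ± 36.2 (mean ± SD, n = 3 each, as throughout). Its counts were 2007, 1159 and 1467 in wild type libraries and 2370, 1127 and 1125 in the others, so the summed gene count did not fall. Which part of Paxbp1 was deleted is not stated in the labels, and the group names below are those of the labels. Of 18 keratinocyte markers 15 were lower, and the summed level of the 18 was 87392 to 143051 CPM in the wild type but between 5113 and 12916 CPM where the label was knockout (wild type given first below). Krt1 (30667 ± 8753 CPM), Krt10 (29009 ± 11848 CPM) and Lor (20441 ± 9276 CPM) held most of the wild type sums. The falls of the 15 ran from 2.06-fold (Itga6) to 73.7-fold (Krt15). Dsg3, Tgm1 and Tgm3 were not called. Dsg3 had 49.8 ± 17.4 against 50.5 ± 23.9 CPM, and Tgm1 had 140 ± 45.1 against 247 ± 102 CPM. Tgm3 had 146 ± 22.3 against 104 ± 67.0 CPM. All 13 macrophage markers were higher (557 to 642 CPM against 11393 to 20691 CPM), as were 12 of 13 fibroblast markers (1002 to 1066 CPM against 7557 to 16217 CPM). The other fibroblast marker, Postn, was lower (544 ± 20.5 against 72.4 ± 16.3 CPM). Of 12 neutrophil markers 8 were higher (2.23 to 3.22 CPM against 3426 to 8408 CPM), and Ly6g and Retnlg had no wild type count. S100a8 (2158 ± 1082 CPM) and S100a9 (2637 ± 1265 CPM) held most of the sums where the label was knockout. Ly6g had 7, 33 and 17 counts there, and Ly6g, Camp, Mpo and Elane were too low to be tested. Of 10 red blood cell markers 7 were higher (4.72 to 8.93 CPM against 962 to 1923 CPM), and Klf1 was lower (1.00 ± 0.360 against 0.293 ± 0.199 CPM). Of 10 endothelial markers 7 were higher (8.97 to 11.1 CPM against 246 to 432 CPM). Pecam1 alone had 166, 252 and 334 CPM where the label was knockout. Egfl7 went the other way without overlap, at 3.22, 2.81 and 3.61 CPM against 2.38, 1.05 and 1.11 CPM. Egfl7 was not called (log2 fold change -1.08, edgeR adjusted p = 0.0605). Emcn had no wild type count and 3, 0 and 2 counts in the other libraries, and Emcn and Tek were too low to be tested. The labelled tissue was thus present by its markers in both groups, and markers of other cell types moved with the label. The part of these cell types in the changes given here was not tested, and in bulk tissue fewer cells of a type cannot be told apart from less RNA per cell.

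**Figure D1:**
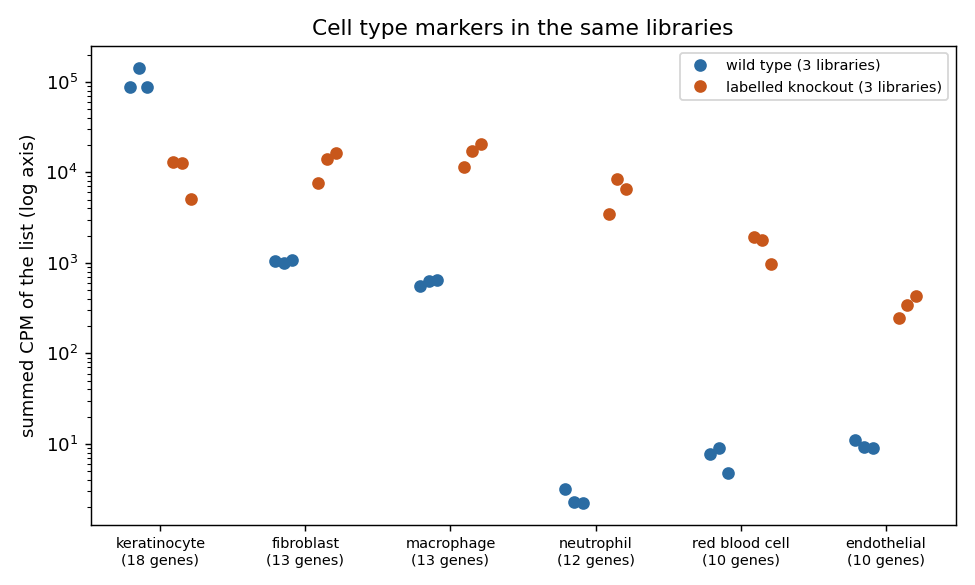
Summed CPM (log axis) of cell type marker lists in each library, with 1 point per library and the number of genes under each name. Keratinocyte sums are lower in the 3 libraries labelled knockout and the 5 other sums are higher, with no overlap between the groups.

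Of the 43 genes 42 passed the filter on low counts. The remaining one, Gstt1, had 3, 2 and 1 counts in the wild type against 10, 5 and 13. Of the 42 tested, 16 were higher and 9 lower at an edgeR adjusted p under 0.05 over all genes tested. This is 38.1% and 21.4%, and over all 16471 tested genes 28.7% were higher and 25.1% lower (53.8% called in all), so the share that fell was near the background. The median log2 fold change was 0.25 over the 42 genes and -0.029 over all tested genes. The groups did not overlap for 28 of the 42 genes, or 66.7%, against 62.3% of all tested genes. Rises ran from 0.63 to 3.82 on the log2 scale and falls from -4.73 to -1.03. All 9 falls were at least 2-fold, as were 12 of the 16 rises.

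**Figure D2:**
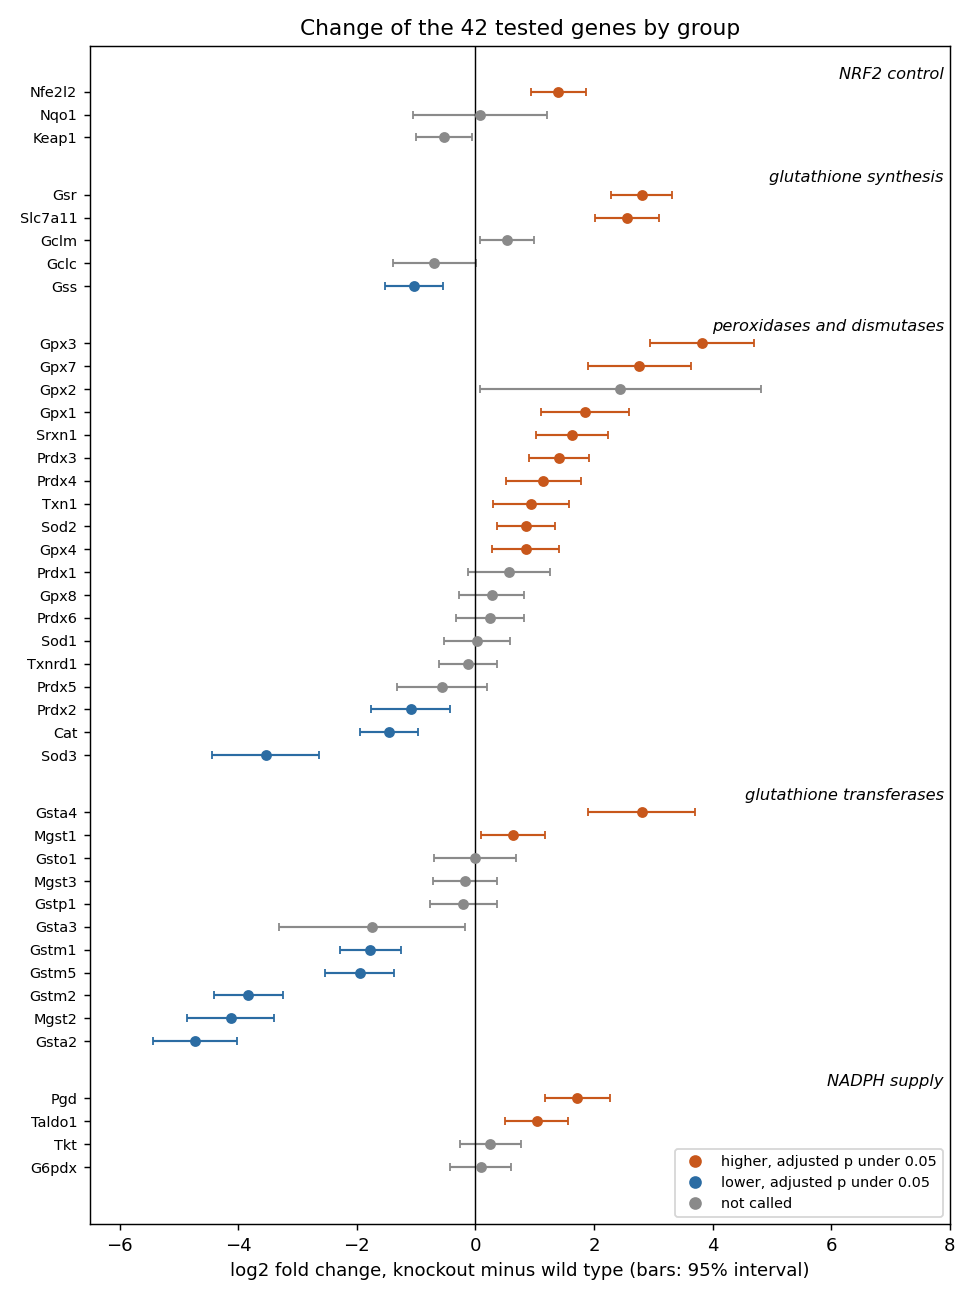
Log2 fold change of knockout minus wild type labels for the 42 tested genes, by group, with 95% intervals from edgeR. Rises (16) and falls (9) are coloured, and genes without a call (17) are grey. Of the 11 transferases tested 5 fell, where 25.1% of all tested genes fell.

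The gene of the transcription factor rose, while that of its inhibitor was not called. Nfe2l2 (ENSMUSG00000015839, chromosome 2, 75675513 to 75704641 on the minus strand, mm10) had 39.3, 47.1 and 45.9 CPM in wild type replicates 1 to 3 and 96.1, 134 and 118 CPM in the libraries labelled knockout. Each knockout-labelled value lay above each wild type value, a rise of 2.63-fold (log2 fold change 1.39 ± 0.21 SE, edgeR adjusted p = 0.000225). Keap1 (ENSMUSG00000003308), which encodes the adaptor that marks NRF2 for breakdown, had 65.5, 67.2 and 71.3 CPM against 37.4, 46.8 and 56.9 CPM. These groups did not overlap either, but Keap1 was not called (log2 fold change -0.53 ± 0.21, edgeR adjusted p = 0.0543). With the replicate number as a block Keap1 was called (log2 fold change -0.55, edgeR adjusted p = 0.0179), and it was without knockout replicate 3 (-0.69, edgeR adjusted p = 0.0271). It was also called with library-size scaling (-0.70, edgeR adjusted p = 0.0130). Nqo1, a quinone reductase gene often used as a readout of NRF2, had a low level. It had 24, 25 and 39 counts in the wild type (1.31, 1.53 and 2.07 CPM) and 50, 14 and 23 counts in those labelled knockout (2.83, 0.915 and 1.42 CPM). The groups overlapped, and the fold's 95% interval spanned 0.483 to 2.31, which includes both a rise and a fall of 2-fold.

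Genes of glutathione synthesis moved in both directions. The cystine importer gene Slc7a11 and the recycling enzyme gene Gsr rose, the ligase gene Gss fell, and the subunit genes of the first ligase were not called. Slc7a11 had 6.82, 10.5 and 10.9 CPM in the wild type and 49.1, 58.3 and 58.3 CPM in the libraries labelled knockout, a rise of 5.86-fold (2.55 ± 0.24, edgeR adjusted p = 8.29e-06). Gsr (ENSMUSG00000031584, chromosome 8, 33652523 to 33698163), glutathione reductase, which turns oxidized glutathione back with NADPH, had 26.4, 29.2 and 34.5 CPM against 169, 235 and 226 CPM. This was 6.98-fold higher (2.80 ± 0.23, edgeR adjusted p = 2.90e-06), with a wide gap between the groups. Gss, glutathione synthetase, which adds glycine in the last step, had 15.8, 19.1 and 18.3 CPM against 9.06, 8.30 and 8.61 CPM. Its log2 fold change was -1.03 ± 0.22 (edgeR adjusted p = 0.00245), and the libraries of each group lay close together. Acss2 overlaps Gss on the opposite strand and had 533 counts over the 6 libraries against 1371 for Gss. Per length, the ratio of Gsr to Gss on the FPKM scale (fragments per kilobase of gene length, scaled to the library total) went from 3.65 ± 0.386 to 52.4 ± 10.9.

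Glutamate-cysteine ligase, the rate-limiting enzyme, has a catalytic subunit encoded by Gclc and a modifier encoded by Gclm. Gclc had 39.0, 27.2 and 39.0 CPM against 31.7, 12.5 and 20.7 CPM, with overlapping groups (-0.70 ± 0.32, edgeR adjusted p = 0.0866). Gclm had 21.5, 19.7 and 26.9 CPM against 30.8, 34.5 and 33.4 CPM, without overlap (0.53 ± 0.21, edgeR adjusted p = 0.0502). With the replicate block both were called, Gclc as lower (-0.77, edgeR adjusted p = 0.0101) and Gclm as higher (0.54, edgeR adjusted p = 0.0277). Without knockout replicate 1 both were also called, at -1.07 (edgeR adjusted p = 0.00715) and 0.59 (edgeR adjusted p = 0.0377), and Gclm was without wild type replicate 3 (0.69, edgeR adjusted p = 0.0493). The Gclc to Gclm ratio of FPKM values was 3.03, 2.30 and 2.42 in the wild type and 1.72, 0.607 and 1.03 in the libraries labelled knockout, with no overlap.

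**Figure D3:**
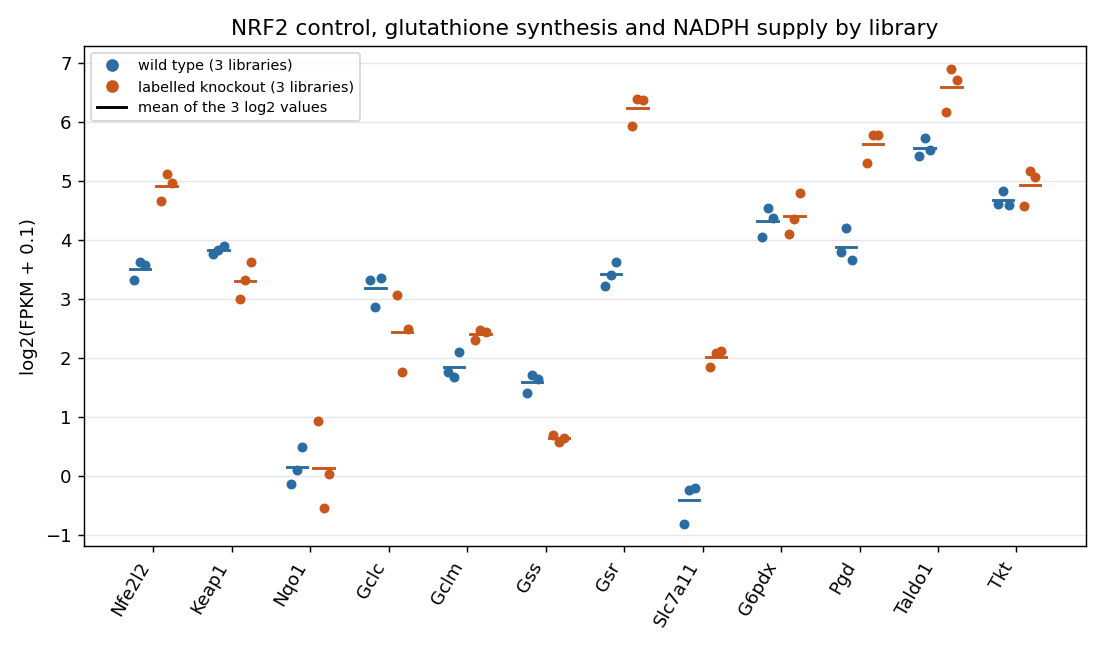
Level of each gene of NRF2 control, glutathione synthesis and NADPH supply in every library, as log2(FPKM + 0.1), with 1 point per library and a line at the mean of each group's log2 values. Nfe2l2, Gsr, Slc7a11, Pgd and Taldo1 are higher in the libraries labelled knockout, Gss is lower, and Nqo1, G6pdx and Tkt overlap.

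Glutathione peroxidases, which reduce peroxides with glutathione, had 4 of 6 genes higher and none lower, where 28.7% of all tested genes were higher and 25.1% lower. Gpx1 (chromosome 9, 108338903 to 108340343), the cytosolic selenoenzyme, had 160, 241 and 234 CPM in the wild type and 471, 1046 and 767 CPM in those labelled knockout. The rise was 3.60-fold (1.85 ± 0.34, edgeR adjusted p = 0.000835), and the knockout-labelled libraries differed over 2-fold among themselves. Gpx3, the secreted plasma enzyme, rose from 24, 8 and 17 counts to 182, 241 and 205 counts, from 0.900 ± 0.410 to 12.9 ± 2.73 CPM. At 14.3-fold (3.82 ± 0.39, edgeR adjusted p = 1.43e-05) this was the largest rise among the 42 genes in edgeR with all 6 libraries, from a low wild type level. On the log2(FPKM + 1) scale, which understates changes of low genes, it was 2.44 and Gsr rose more, by 2.71. Gpx7, an enzyme of the endoplasmic reticulum with cysteine in place of selenocysteine, had 1.58, 3.06 and 2.60 CPM against 9.85, 24.0 and 15.4 CPM (2.76 ± 0.39, edgeR adjusted p = 0.000144).

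The remaining glutathione peroxidase genes changed less or could not be called. Gpx4, which reduces lipid peroxides in membranes and guards against ferroptosis, had 69.4, 89.6 and 96.1 CPM against 111, 201 and 148 CPM (0.85 ± 0.26, edgeR adjusted p = 0.0164). The Gpx4 call was lost without wild type replicate 1 (0.72, edgeR adjusted p = 0.0650) or knockout replicate 2 (0.61, edgeR adjusted p = 0.0586). Gpx8, the other enzyme of the endoplasmic reticulum, had 13.3, 13.3 and 15.5 CPM against 12.9, 21.4 and 16.7 CPM (95% interval of the fold 0.830 to 1.77). Gpx2, known from gut epithelium, had 1, 10 and 0 counts in the wild type and 34, 3 and 23 in the other libraries, with overlap (2.45 ± 1.07, edgeR adjusted p = 0.0759). It was called without wild type replicate 2 (5.12, edgeR adjusted p = 0.0107) and without knockout replicate 2 (2.94, edgeR adjusted p = 0.0344). The annotated Gpx2 gene lies wholly within Fntb, on the opposite strand, which had 1852 counts over the 6 libraries against 71 for Gpx2, and the strand setting of the counting is not given in the sources used here.

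Catalase fell while 4 of the 6 glutathione peroxidase genes rose. Cat, the peroxisomal enzyme that splits hydrogen peroxide without a cofactor thiol, had 144, 167 and 131 CPM in the wild type and 43.4, 53.7 and 63.2 CPM in those labelled knockout. The highest knockout-labelled value was below the lowest wild type value (-1.46 ± 0.22, edgeR adjusted p = 0.000228). Per length, the ratio of Gpx1 to Cat FPKM was 2.02, 2.62 and 3.24 in the wild type and 19.7, 35.3 and 22.0 in those labelled knockout. The summed FPKM of the 6 glutathione peroxidase genes went from 207 ± 41.8 to 650 ± 234, and Gpx1 held 69.3% of the sum in the wild type and 80.8% in the libraries labelled knockout. Red blood cells are rich in both enzymes, and their marker sum was higher in the libraries labelled knockout, where Gpx1 rose and Cat fell. The part of red blood cells in these changes was not tested.

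Peroxiredoxins, which reduce peroxides through a reactive cysteine recycled mostly by thioredoxin, were split by gene. Prdx3, the mitochondrial member, had 16.04, 15.8 and 16.1 CPM in the wild type and 35.1, 54.0 and 38.2 CPM in those labelled knockout (1.41 ± 0.23, edgeR adjusted p = 0.000350). The wild type libraries were almost identical (SD 0.167 CPM), and each knockout-labelled library was over 2-fold higher. Prdx4, the member of the endoplasmic reticulum, had 15.6, 17.97 and 19.0 CPM against 23.8, 53.8 and 39.0 CPM (1.15 ± 0.29, edgeR adjusted p = 0.00603). Prdx2, a cytosolic member abundant in red blood cells, fell from 322, 506 and 394 CPM to 134, 263 and 176 CPM (-1.09 ± 0.30, edgeR adjusted p = 0.0104). Of 10 red blood cell markers 7 rose in these libraries and 1 fell, and a link to Prdx2 was not tested. The gene Junb overlaps the Prdx2 locus by 351 bases on the opposite strand. Junb had 2683, 2881 and 2214 counts in the wild type and 8418, 9863 and 8584 in the others, the opposite direction.

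The other peroxiredoxin genes were not called. Prdx1 had 207, 299 and 302 CPM against 276, 578 and 345 CPM (0.57 ± 0.31, edgeR adjusted p = 0.150), and was called without knockout replicate 1 (0.78, edgeR adjusted p = 0.0397). Prdx5, whose product is found in mitochondria, peroxisomes and cytosol, had 400, 725 and 553 CPM against 251, 542 and 342 CPM (-0.56 ± 0.34, edgeR adjusted p = 0.186). It was called with the replicate block (-0.60, edgeR adjusted p = 0.0295) and without knockout replicate 2 (-0.91, edgeR adjusted p = 0.0392). Prdx6, which uses glutathione rather than thioredoxin, had 119 ± 23.9 and 141 ± 38.6 CPM (95% interval of the fold 0.794 to 1.76). On the FPKM scale the 6 genes summed to 516 ± 131 in the wild type and 444 ± 161 in the libraries labelled knockout, and Prdx5 had the highest mean level of the 6 in both.

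Of the thioredoxin genes, Srxn1 and Txn1 rose and Txnrd1 was not called. Srxn1, sulfiredoxin, which repairs over-oxidized peroxiredoxins and is a known NRF2 target, had 8.08, 14.1 and 11.8 CPM against 29.0, 31.8 and 44.0 CPM (1.63 ± 0.27, edgeR adjusted p = 0.000453). Txn1, thioredoxin, had 138, 218 and 178 CPM against 319, 457 and 244 CPM (0.93 ± 0.29, edgeR adjusted p = 0.0189). The Txn1 call was lost without wild type replicate 1 (0.78, edgeR adjusted p = 0.0757), wild type replicate 3 (0.94, edgeR adjusted p = 0.0606) or knockout replicate 2 (0.66, edgeR adjusted p = 0.0660), and without both libraries numbered 1 (0.81, edgeR adjusted p = 0.0695). Txnrd1, the selenoenzyme that reduces thioredoxin, had 125, 128 and 92.2 CPM against 122, 88.7 and 106 CPM, and its fold had a 95% interval from 0.654 to 1.29.

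The superoxide dismutases differed by compartment. Sod2, the mitochondrial manganese enzyme, which inflammatory signals are known to induce, had 46.8, 55.0 and 52.5 CPM against 71.5, 111 and 96.9 CPM (0.86 ± 0.22, edgeR adjusted p = 0.00678). Sod3, the extracellular enzyme, fell from 17.8, 25.8 and 10.8 CPM to 2.15, 1.503 and 0.991 CPM (-3.54 ± 0.41, edgeR adjusted p = 3.31e-05). Sod1, the cytosolic copper-zinc enzyme, had 63.5 ± 5.55 and 65.0 ± 21.6 CPM, with a 95% interval of the fold from 0.696 to 1.504. Sod1 overlaps Scaf4 by 650 bases on the opposite strand.

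**Figure D4:**
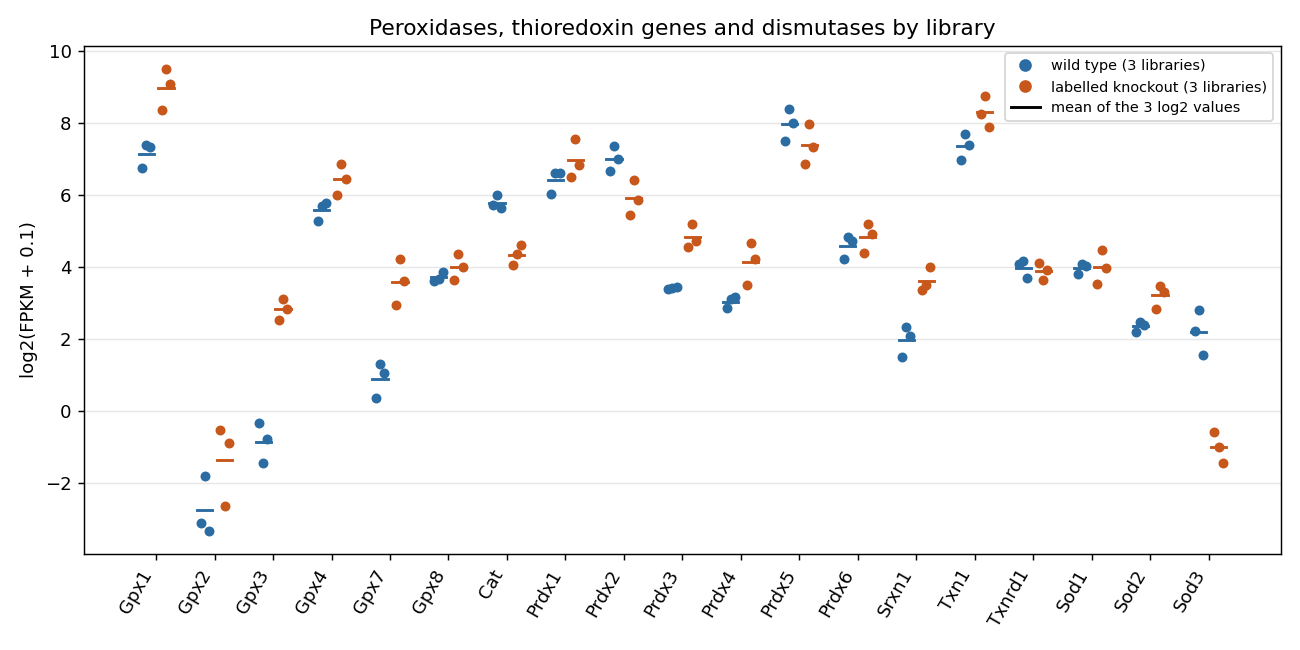
Level of each peroxidase, thioredoxin and dismutase gene in every library as log2(FPKM + 0.1), with 1 point per library and a line at the mean of each group's log2 values. Gpx1, Gpx3, Gpx7, Prdx3 and Srxn1 are higher in all 3 libraries labelled knockout, and Cat, Prdx2 and Sod3 are lower in all 3.

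Glutathione transferases, which join glutathione to electrophiles and lipid peroxidation products, held 5 of the 9 falls. Of the 11 tested, 5 were lower and 2 higher, where 25.1% of all tested genes were lower and 28.7% higher. All 3 Gstm genes fell. Gstm2 had 41.3, 44.1 and 47.0 CPM in the wild type and 2.60, 4.05 and 2.66 CPM in those labelled knockout (-3.83 ± 0.26, edgeR adjusted p = 7.64e-07). Gstm1 had 30.6, 29.96 and 36.6 CPM against 8.04, 8.82 and 11.6 CPM (-1.77 ± 0.23, edgeR adjusted p = 8.51e-05). Gstm5 had 22.7, 32.5 and 25.7 CPM against 6.57, 8.82 and 5.51 CPM (-1.95 ± 0.26, edgeR adjusted p = 9.99e-05). For each of the 3, the highest knockout-labelled value was below the lowest wild type value. The summed FPKM of the 3 genes was 67.7 ± 6.25 in the wild type and 13.7 ± 1.55 in the libraries labelled knockout.

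The Gstm genes are neighbours on chromosome 3 (mm10). Gstm5 (107895821 to 107898686, plus strand), Gstm2 (107981702 to 107986453, minus strand) and Gstm1 (108012255 to 108017973, minus strand) stand in a row with 4 further Gstm genes that were not among the 43. Of these, Gstm6 (-3.61 ± 0.44, edgeR adjusted p = 5.10e-05) and Gstm7 (-4.46 ± 0.80, edgeR adjusted p = 0.000741) also fell, from 5.07 ± 1.18 and 1.05 ± 0.154 CPM in the wild type. Gstm4, at the end of the row, had 5.20 ± 0.505 and 5.81 ± 1.45 CPM and was not called (0.16 ± 0.31, edgeR adjusted p = 0.690). Gstm3 was under the filter. Gstm genes are alike in sequence and reads could be split between them. The antisense gene 4933431E20Rik, which overlaps Gstm5 by 393 bases, had 387, 279 and 249 counts in the wild type and 12, 12 and 18 in the others.

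Of the 3 Gsta genes, Gsta2 fell, Gsta4 rose and Gsta3 was not called. Gsta2 (ENSMUSG00000057933) had 26.5, 39.4 and 27.3 CPM in the wild type and 1.19, 1.503 and 0.805 CPM in the libraries labelled knockout, the largest fall of the 42 genes (-4.73 ± 0.32, edgeR adjusted p = 7.84e-07). Gsta4, which is specialised for the lipid peroxidation product 4-hydroxynonenal, had 8.40, 13.4 and 16.98 CPM against 119, 111 and 40.7 CPM (2.80 ± 0.41, edgeR adjusted p = 0.000177). Knockout replicate 3 was the lowest of its group for Gsta4 and still above every wild type library. The ratio of Gsta4 to Gsta2 FPKM was 0.295, 0.316 and 0.579 in the wild type and 93.1, 68.8 and 47.0 in the libraries labelled knockout. Of the summed Gsta FPKM, Gsta2 held 71.4% in the wild type and Gsta4 98.5% in the libraries labelled knockout. Gsta4 (78182774 to 78209349) and Gsta2 (78331018 to 78355788) lie near each other on chromosome 9 with Gsta1 between them. Gsta1, not among the 43, fell too (-2.05 ± 0.37, edgeR adjusted p = 0.000705), and it is close to Gsta2 in sequence. Gsta3, on chromosome 1, had 20, 41 and 21 counts against 10, 1 and 12, without overlap, and was not called (-1.74 ± 0.71, edgeR adjusted p = 0.0584).

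The membrane-bound transferases, which act on lipids and leukotrienes as well as on electrophiles, also differed. Mgst2 had 99.6, 105 and 59.1 CPM against 5.61, 6.27 and 3.22 CPM (-4.12 ± 0.33, edgeR adjusted p = 2.37e-06). Mgst1 had 14.2, 13.8 and 15.4 CPM against 17.3, 28.7 and 21.5 CPM and was just called (0.63 ± 0.24, edgeR adjusted p = 0.0462). The Mgst1 call was lost in 11 of 20 alternatives, and leaving out any wild type library lost it (edgeR adjusted p = 0.109, 0.134 and 0.0871 without replicates 1, 2 and 3). It was also lost without knockout replicate 2 (edgeR adjusted p = 0.170) or 3 (edgeR adjusted p = 0.0660). Mgst3 had 31.8 ± 4.32 and 28.3 ± 7.37 CPM (95% interval of the fold 0.612 to 1.29).

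Gstp1 and Gsto1, of the remaining soluble transferases, were not called. Gstp1, the main pi-class enzyme, had 46.5 ± 8.90 and 40.4 ± 12.4 CPM (95% interval of the fold 0.585 to 1.29). Gsto1, an omega-class enzyme that reduces mixed disulfides, had 216, 341 and 292 CPM against 408, 199 and 238 CPM (95% interval of the fold 0.618 to 1.603). On the FPKM scale Gsto1 was the most abundant transferase of the list in both groups, at 141 ± 33.3 and 142 ± 55.8. The annotated Gsto1 gene lies wholly within Cfap43, on the opposite strand, which had 5522 counts against 29116 for Gsto1.

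**Figure D5:**
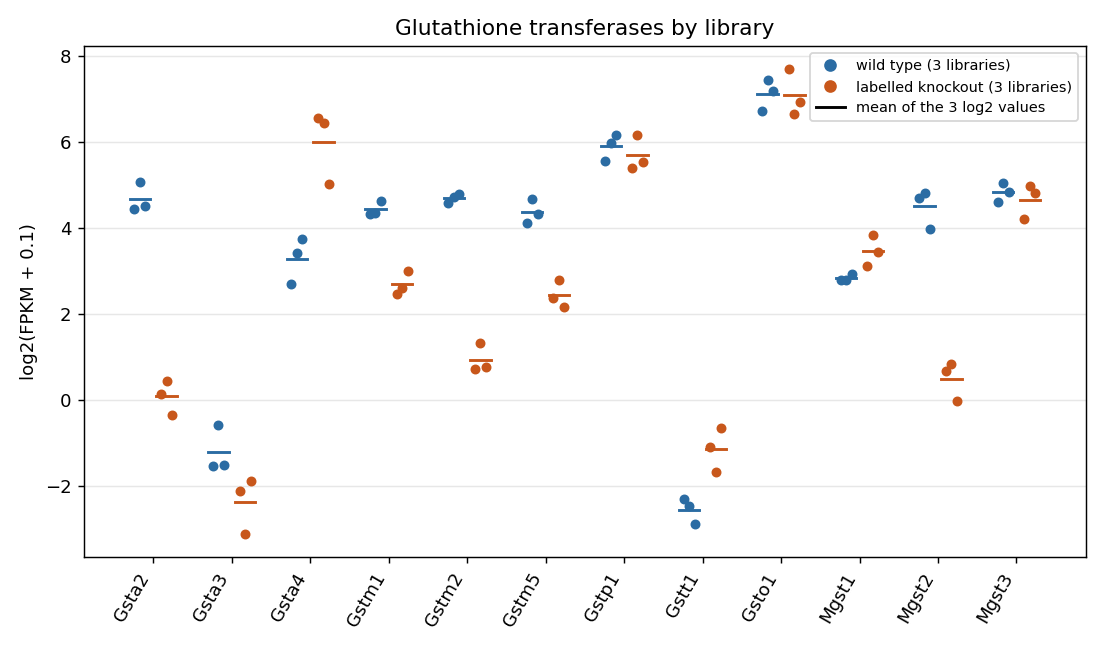
Level of each glutathione transferase gene in every library as log2(FPKM + 0.1), with 1 point per library and a line at the mean of each group's log2 values. Gsta2, Gstm1, Gstm2, Gstm5 and Mgst2 are lower in all 3 libraries labelled knockout, Gsta4 is higher in all 3, and Gstp1, Gsto1 and Mgst3 overlap.

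Enzymes of the pentose phosphate pathway regenerate the NADPH on which glutathione reductase and thioredoxin reductase depend. Pgd, 6-phosphogluconate dehydrogenase, the later of the NADPH-making steps, had 93.0, 119 and 82.8 CPM in the wild type and 258, 359 and 352 CPM in those labelled knockout (1.72 ± 0.25, edgeR adjusted p = 0.000163). G6pdx, which makes the first and rate-limiting step, had 52.6, 72.0 and 64.4 CPM against 52.8, 63.4 and 84.9 CPM, and its fold had a 95% interval from 0.744 to 1.52. The ratio of Pgd to G6pdx FPKM therefore went from 0.749 ± 0.121 to 2.34 ± 0.363, without overlap. Taldo1, transaldolase of the non-oxidative branch, had 97.5, 117 and 102 CPM against 157, 263 and 228 CPM (1.04 ± 0.24, edgeR adjusted p = 0.00385). Tkt, transketolase of the same branch, had 187, 211 and 180 CPM against 176, 268 and 245 CPM (95% interval of the fold 0.832 to 1.70). The annotated G6pdx gene lies wholly within Ikbkg, on the opposite strand, which had 4587 counts against 6629 for G6pdx.

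Levels could be ordered per length. By mean FPKM the wild type order began with Prdx5 (256 ± 77.9), Txn1 (166 ± 39.5), Gpx1 (144 ± 32.4), Gsto1 (141 ± 33.3) and Prdx2 (131 ± 31.5), and the ranges over libraries overlapped between neighbours in this order. In the libraries labelled knockout Gpx1 (525 ± 197) came first and Txn1 (321 ± 100) second, followed by Prdx5 (176 ± 68.4) and Gsto1 (142 ± 55.8), again with ranges that overlapped between neighbours. Gsr moved from place 26 of 43 (10.7 ± 1.55 FPKM) to place 8 (75.8 ± 13.1 FPKM), and Gsta2 from place 12 (25.8 ± 6.31 FPKM) to 39 (0.983 ± 0.288 FPKM). Gstm2 went from place 13 to 35 and Mgst2 from 16 to 37.

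Libraries with the same number shared part of their spread. Replicate 2 had the highest CPM of its group for 25 of the 43 genes in the wild type and for 27 in the libraries labelled knockout. Replicate 1 had the lowest for 29 in each group. For the 36 genes with a wild type mean of at least 10 CPM, the median coefficient of variation was 16.4% in the wild type and 25.9% in the libraries labelled knockout.

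Other genes of the same pathways, from lists that hold none of the 43, had members called in each direction. Of 114 such genes 103 were tested, with 38 higher (36.9%) and 28 lower (27.2%), against 28.7% and 25.1% of all tested genes, so the share that fell was near the background here too. Their median log2 fold change was 0.11. The counts of the smaller lists that follow are to be read against the same shares of all genes. Among 15 partners and turnover factors of NRF2, 4 were higher and 3 lower. Bach1, a repressor that competes for antioxidant response elements, rose from 77.6 ± 16.3 to 373 ± 83.1 CPM (2.26 ± 0.27, edgeR adjusted p = 3.70e-05), and Sqstm1, the p62 adaptor that binds KEAP1, rose too (0.95 ± 0.23, edgeR adjusted p = 0.00468). Bach2, the related repressor, fell (-2.22 ± 0.25, edgeR adjusted p = 2.87e-05), as did the nuclear receptor gene Rxra (-1.89 ± 0.23, edgeR adjusted p = 4.78e-05).

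Of 22 other NRF2 targets 10 were higher and 5 lower. The aldose reductase relative Akr1b8 (3.14 ± 0.842 to 42.2 ± 9.94 CPM, edgeR adjusted p = 2.07e-06) and the ferritin light chain gene Ftl1 (221 ± 47.0 to 2388 ± 468 CPM, edgeR adjusted p = 9.78e-06) rose. The malic enzyme gene Me1 (89.8 ± 12.4 to 23.3 ± 5.81 CPM, edgeR adjusted p = 5.85e-05) and the epoxide hydrolase gene Ephx1 (32.7 ± 6.88 to 7.89 ± 1.93 CPM, edgeR adjusted p = 8.24e-05) fell. Macrophages hold much ferritin, and all 13 macrophage markers were higher. A link of these markers to the rise of Ftl1 was not tested.

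Of 22 glutathione turnover genes 7 were higher and 8 lower. The gamma-glutamyl transferase genes were split: Ggt5 (0.930 ± 0.114 to 34.6 ± 6.97 CPM, edgeR adjusted p = 2.53e-07) and Ggt1 (0.301 ± 0.193 to 11.5 ± 2.75 CPM, edgeR adjusted p = 6.42e-06) rose and Ggt6 fell (35.1 ± 1.63 to 2.79 ± 1.05 CPM, edgeR adjusted p = 3.28e-06). Cbs, the first enzyme of the route from homocysteine to cysteine, fell from 38.2 ± 2.16 to 0.672 ± 0.155 CPM (-5.82 ± 0.29, edgeR adjusted p = 1.79e-07). Of 18 further transferase genes and relatives, not all of them transferases, 5 were higher and 6 lower. Alox5ap, a leukotriene synthesis gene of leukocytes, rose (6.83 ± 0.39, edgeR adjusted p = 2.71e-07), with Gstt2 (1.62 ± 0.34, edgeR adjusted p = 0.00209), while Gstm6 and the peroxisomal and mitochondrial enzyme gene Gstk1 (-2.40 ± 0.30, edgeR adjusted p = 5.81e-05) fell.

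Of 20 further thioredoxin, peroxidase and repair genes 8 were higher and 3 lower. The ferroptosis suppressor gene Aifm2 (3.64 ± 0.28, edgeR adjusted p = 1.56e-06) and the selenium carrier gene Selenop (3.24 ± 0.32, edgeR adjusted p = 1.12e-05) rose. Txnrd3 (-2.08 ± 0.27, edgeR adjusted p = 8.37e-05) and the sestrin gene Sesn3 (-1.77 ± 0.26, edgeR adjusted p = 0.000171) fell. Of 17 further genes listed with NADPH supply, not all of which make NADPH, 4 were higher and 3 lower. The malic enzyme gene Me2 (2.29 ± 0.28, edgeR adjusted p = 5.34e-05) and the mitochondrial folate enzyme gene Mthfd2 (2.22 ± 0.27, edgeR adjusted p = 5.30e-05) rose, and the cytosolic folate enzyme genes Mthfd1 (-2.01 ± 0.22, edgeR adjusted p = 2.24e-05) and Aldh1l1 (-1.75 ± 0.32, edgeR adjusted p = 0.000779) fell.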

How the data were processed

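For the same 6 libraries and 54532 genes, the authors deposited raw read counts, as whole numbers, and FPKM values. HISAT2 2.0.5, featureCounts 1.5.0-p3 and the build mm10 come from the submitters' processing notes. Settings, strand and annotation release: not given in the sources used here. Within a library, each deposited FPKM value is the count divided by gene length and library total, times a constant of 0.854 to 1.12 depending on the library.

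Counts went into edgeR 4.0.16 (R 4.3.3) with TMM factors, filterByExpr (count of at least 10, total of at least 15) and robust quasi-likelihood tests of genotype. A gene was called where its Benjamini-Hochberg adjusted p, taken over 16471 genes, was under 0.05. An SE was obtained by dividing the size of the log2 fold change by the root of F, and intervals are at 95%. Levels of a gene are compared between groups in CPM, and between genes in FPKM. As alternatives, factors by RLE, by upper quartile or by library size alone were used, as were no filter, a stricter one, DESeq2 1.42.0, limma 3.58.1 (voom on counts, trend on log2 FPKM with a pseudocount of 1 or 0.1), a replicate block, protein-coding genes only, and leaving out each library. The fit was tried on simulated data with known changes.

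The 43 genes, all lists and the alternatives were chosen with earlier results of these data known. From each list of other pathway genes the 2 with the smallest adjusted p in each direction are named, and any other gene named was chosen after its values were seen. Marker lists not used further are lymphocytes and Langerhans cells (1 of 9 higher, 3 lower), melanocytes (2 of 8 higher, 4 lower), mast cells (4 of 7 higher, 1 lower), adipocytes (2 of 8 higher) and muscle (3 of 8 higher). The 2 adipocyte markers that were higher are Fabp4 and Lipe. Adipoq and Plin1 had 36 and 54 counts in knockout replicate 1 and no count in any other library. The symbol Trgc1 matched no row. Of the 43 genes, 18 overlap another annotated gene, and reads of near-identical family members may have been split.

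To see whether replicate numbers pair the libraries, each library's deviation from its group mean was correlated across genes. Same-numbered libraries gave 0.23, 0.34 and 0.18, and other pairs -0.32 to 0.073, so the numbers may pair the libraries. The main test has genotype only and does not use such pairs, and the replicate block was run as an alternative. What the numbers stand for is not in the labels. A value with the replicate block is given beside a result where it changed the call.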

Additional observations from a re-analysis of the deposited data

How the results depend on the processing

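The counts of genes that rose (16) and fell (9) kept within 1.5 times under all 20 alternatives: 13 to 18 and 9 to 10 on leaving out 1 library, and 13 to 17 and 9 to 12 otherwise. The same held for the other pathway genes (38 higher and 28 lower, 32 to 39 and 24 to 34) and for all genes. All 9 genes that fell, and 13 of the 16 that rose, kept their call under every alternative run. The exceptions were Txn1, Gpx4 and Mgst1. Of the 17 genes not called, 7 were called under some alternative, and no gene changed direction with a call. With the replicate block Keap1 (-0.55), Gclc (-0.77), Gclm (0.54) and Prdx5 (-0.60) were called, and no other call of the 43 genes changed. Of all tested genes 30.9% were then higher and 29.1% lower. Upper-quartile and library-size scaling shifted the median of all genes by -0.19 and -0.15, which moved the share of all genes higher and lower from 28.7% and 25.1% to 25.2% and 31.2% or 25.5% and 28.6%. Under these, Mgst1 was not called (adjusted p = 0.137 and 0.105) and Keap1 was. Nqo1, Gpx2, Gsta3 and Gstt1 had at most 50 counts in any library. The 95% intervals of all 17 genes not called allow a 1.5-fold change in at least 1 direction.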
